A study of Mus musculus with 753 samples.

Results

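The 7 genes described here handle zinc, copper and iron in the cell: the metallothioneins Mt1 and Mt2, the ferritin subunits Fth1 and Ftl1, the zinc exporter Slc30a1, the metal-sensing transcription factor Mtf1 and the transferrin receptor Tfrc. They were chosen by name from the 25001 genes of the deposited table, and all 7 were present. Mt2 was already known to be lower in lin+ than in lin- cells of unwounded skin when the genes were listed, so values in unwounded skin are given as a description, with no test. Both lineages came from Gata6EFGPCreERT2 Rosa26-fl/STOP/fl-tdTomato mice of genotype Cre (+/-) tdTomato (+/-), 8 to 12 weeks old, which received topical 4-hydroxytamoxifen 1 week before wounding. Lin+ cells carried tdTomato, which marks cells that expressed Cre from the Gata6 promoter and their progeny, and lin- cells did not. Wound cells came from full-thickness back skin wounds 6, 9 or 11 days after injury, and day 0 cells from unwounded skin of the mice used for days 9 and 11, with no label that links a day 0 sample to its mouse. Single keratinocytes without CD45 were sorted at high and at low to medium Itga6 and sequenced with Smart-seq2, which reads full-length mRNA of 1 cell per well.

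The annotated cells, 222 in a first and 462 in a second batch, formed 14 sets. Each set held the cells of 1 lineage from 1 of 7 skin samples. These were 2 of unwounded skin, 1 of day 6, 2 of day 9 and 2 of day 11. The first batch was replicate 1, and the second held replicate 2 and all of day 6. In the first batch the cell names of each day had a prefix of their own, so day and prefix cannot be told apart there. A day 9 or day 11 replicate was 1 mouse, while day 6 pooled mice whose replicates the labels do not separate. Sets held 26 to 93 cells, with a median of 1806780 to 5967310 reads per cell, and 4 cells had under 200 genes and no read of any of the 7 genes. The median number of genes found per cell was 1776 to 2308 in unwounded sets, 2089 and 2143 at day 6, and 1943.5 to 3228 at days 9 and 11. Summed immune markers (5 genes) had levels of at most 4.07 in unwounded sets and 167 in wound sets, on the scale of 1000000 per cell used below. Summed melanocyte markers (4 genes) reached 22.6 in lin+ wound sets and 5574 in lin- wound sets, where 5 cells had summed levels of 43874 to 157371 with Krt5 and Krt14 at 0. Those 5 cells had Mt1 levels of 806 to 5616. None of the 4 genes tested below passed the threshold with these cells or without them, so the calls cannot show how far they moved the levels.

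Metallothioneins are small cysteine-rich proteins that bind zinc and copper, and their transcription rises with free zinc through MTF1, which binds metal response elements in their promoters. Slc30a1, which moves zinc out of the cell, is a further MTF1 target. Ferritin stores iron in a shell of heavy chains (Fth1), which oxidise the iron, and light chains (Ftl1), which help to mineralise it, while Tfrc brings transferrin-bound iron into the cell. Iron regulatory proteins act on ferritin and Tfrc mRNAs in opposite directions when iron is scarce. In skin, metallothionein is known as a protein of basal and hair follicle keratinocytes.

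Mt1 and Mt2 lie next to each other on mouse chromosome 8. The 250 bases before each RefSeq promoter start (GRCm38.p6) were searched on both strands for TGCACNC and TGCGCNC, the core letters of the metal response element. For Mt1 and Slc30a1 the start used lay inside the gene, whose listed span begins at 94178883 and 191906697. Their windows thus hold part of the gene and not all of the 250 bases before it, where matches were not counted. The whole window of Mt2 is shown because it held the most matches of the 7 genes, and for Mt1 and Slc30a1 only 30 bases around the single match are shown. Capitals mark the matches, and the 3 sequences are given on the + strand.
Mt2, chr8:94172368-94172617: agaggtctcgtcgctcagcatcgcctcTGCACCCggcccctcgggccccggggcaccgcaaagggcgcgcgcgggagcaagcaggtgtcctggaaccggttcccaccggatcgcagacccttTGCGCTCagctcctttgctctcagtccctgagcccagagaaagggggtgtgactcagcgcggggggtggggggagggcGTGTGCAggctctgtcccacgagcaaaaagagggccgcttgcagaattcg
Mt1, chr8:94179055-94179084: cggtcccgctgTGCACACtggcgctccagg
Slc30a1, chr1:191906727-191906756: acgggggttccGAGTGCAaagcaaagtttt

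The Mt2 window held 3 matches, at 223, 128 and 50 bases before the start, the last of them on the opposite strand. The Mt1 match lay 23 bases and the Slc30a1 match 43 bases before the start used, that of Slc30a1 on the opposite strand. Both matches lay inside the listed span of their gene. The first of 2 Tfrc starts held 2 overlapping matches, and the windows of Fth1, Ftl1 and Mtf1 held none. Of 32851 RefSeq promoters of the same length, 21.4% held at least 1 match and 1.26% at least 3. A match is a description of the letters in these windows and not evidence of binding.

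Compared per length of transcript, the metallothioneins and ferritins were abundant and the other 3 genes were close to the limit of detection. Mean levels in reads per kilobase of transcript and 1000000 reads (RPKM) were 3897 in the first and 1750 in the second batch for Mt1, 1139 and 835 for Mt2, 955 and 913 for Fth1, and 423 and 392 for Ftl1. Slc30a1, Mtf1 and Tfrc had means of 0.468 to 3.42 RPKM. Reads of Mt1 were found in 74.3% of first-batch and 71.6% of second-batch cells, and those of Mt2 in 57.2% and 53.2%. Fth1 was found in 68.5% and 62.1% of cells and Ftl1 in 67.1% and 79.7%. In contrast, Slc30a1 was found in 5.86% and 6.28%, Mtf1 in 7.66% and 15.8%, and Tfrc in 10.8% and 9.96%.

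A level is the average of all cells in a set after each was scaled to a total of 1000000. The total was of counts in the first batch and of RPKM in the second, so levels are compared within a batch. Every fit has a term for the batch, except in 1 alternative setting of the day comparisons. Comparisons were fitted with limma on log2(level + 1) for 10618 genes, with Benjamini-Hochberg adjustment over all of them and a threshold of 0.05. Mt1, Mt2, Fth1 and Ftl1 entered the fit, and Slc30a1, Mtf1 and Tfrc were too low.

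In unwounded skin the metallothioneins and Fth1 were lower in lin+ than in lin- cells, and Ftl1 differed less. Mt2 levels were 198 and 385 in lin+ cells of replicates 1 and 2, against 1078 and 1773 in lin- cells. Fth1 levels were 480 and 379 in lin+ cells, against 2175 and 1479 in lin- cells. Without its highest cell, the lin- Fth1 level of replicate 1 was 1265. In each batch the lin+ set lay far below the lin- set. Mt1 levels were 639 and 1388 in lin+ cells, against 2690 and 3216 in lin- cells, again lower in both batches. Ftl1 levels were 135 and 501 in lin+ cells, against 304 and 553 in lin- cells, and were nearly equal in the second batch. On the log2 scale the lin+ minus lin- difference was −2.32 for Mt2 (SE 0.34), −2.07 for Fth1 (SE 0.35), −1.64 for Mt1 (SE 0.39) and −0.65 for Ftl1 (SE 0.33). All 4 genes were lower in lin+ cells in both unwounded skin samples, as were 26.7% of all tested genes.

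**Figure D1:**
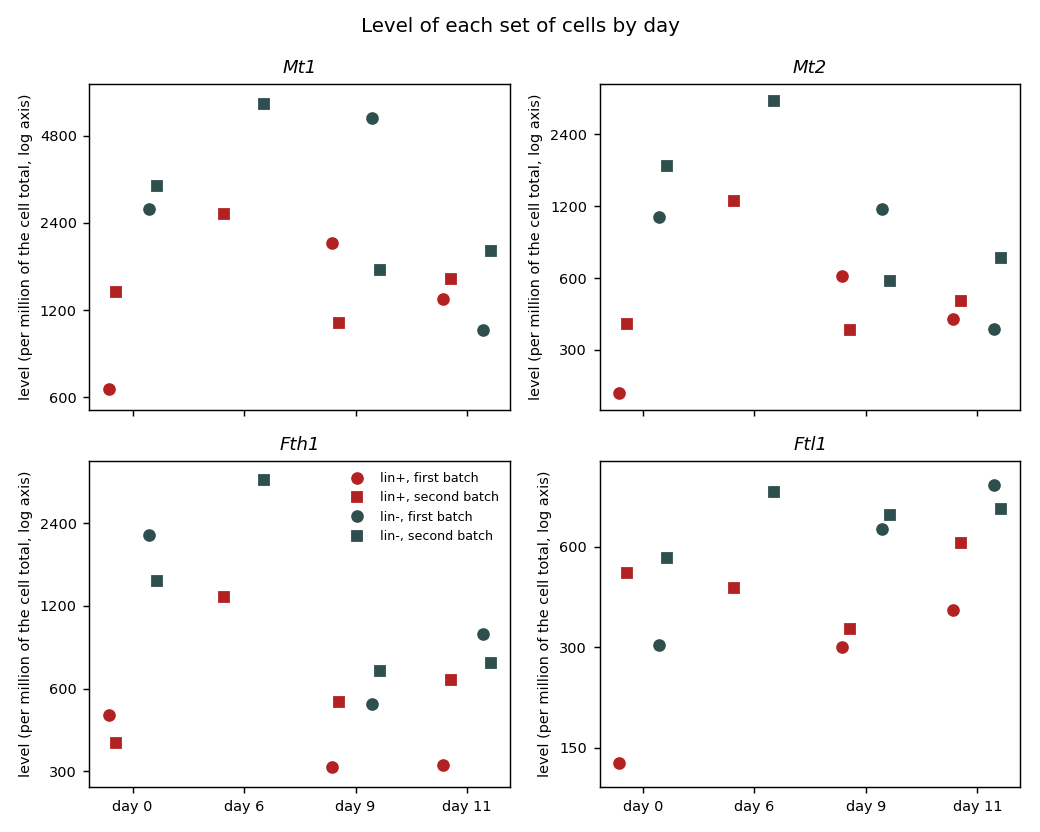
Mean level of Mt1, Mt2, Fth1 and Ftl1 in each set of cells (per 1000000 of the cell total, log axis) by day after wounding. Lin+ is left of lin-, and the marker shows the batch. Mt2 in unwounded skin was at 198 and 385 in lin+ cells, against 1078 and 1773 in lin- cells, and levels are comparable within a batch.

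The share of cells with a read moved with the level for Mt2 and Fth1. Mt2 was found in 25.5% (95% exact Clopper-Pearson interval 13.9 to 40.3) and 45.7% (30.9 to 61.0) of unwounded lin+ cells of replicates 1 and 2, against 61.7% (46.4 to 75.5) and 66.7% (51.6 to 79.6) of lin- cells. Fth1 was found in 42.6% and 39.1% of unwounded lin+ cells, against 70.2% and 60.4% of lin- cells. These intervals cover counting error only. With cells thinned to 500000 reads and 22 shallower cells left out, Mt2 was found in 19.1% and 39.1% of unwounded lin+ cells, against 61.4% and 66.7% of lin- cells. The lineages also differed in makeup, since the deposited annotation placed 23 of 47 and 21 of 46 unwounded lin+ cells in basal interfollicular epidermis (IFE-B), against 36 of 47 and 31 of 48 lin- cells. Summed basal keratinocyte markers (5 genes, all 5 with a negative difference) were at 12380 and 6563 in the unwounded lin+ sets of replicates 1 and 2, against 24802 and 11277 in the lin- sets. The part of these markers in the differences was not tested.

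IFE-B cells alone gave lower metallothionein and Fth1 levels in lin+ cells as well. The paper lists Mt2 among IFE-B markers, so this identity is not independent of the Mt2 level. In sections of unwounded skin the paper detected no basal lin+ cells. It proposes that day 0 cells of high Itga6 could come from the lin- population. Mt2 averaged 674 and 410 RPKM in unwounded lin+ IFE-B cells of the first and second batch, against 2294 and 1204 RPKM in lin- IFE-B cells. Fth1 averaged 474 and 167 RPKM in lin+ IFE-B cells, against 2585 and 975 RPKM in lin- IFE-B cells. The mean of 2585 RPKM included 1 cell at 48008 RPKM. Fitted on IFE-B cells alone, the lin+ minus lin- difference in unwounded skin was −1.69 for Mt2 (SE 0.38), −2.53 for Fth1 (SE 0.59), −1.72 for Mt1 (SE 0.45) and −0.23 for Ftl1 (SE 0.37).

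**Figure D2:**
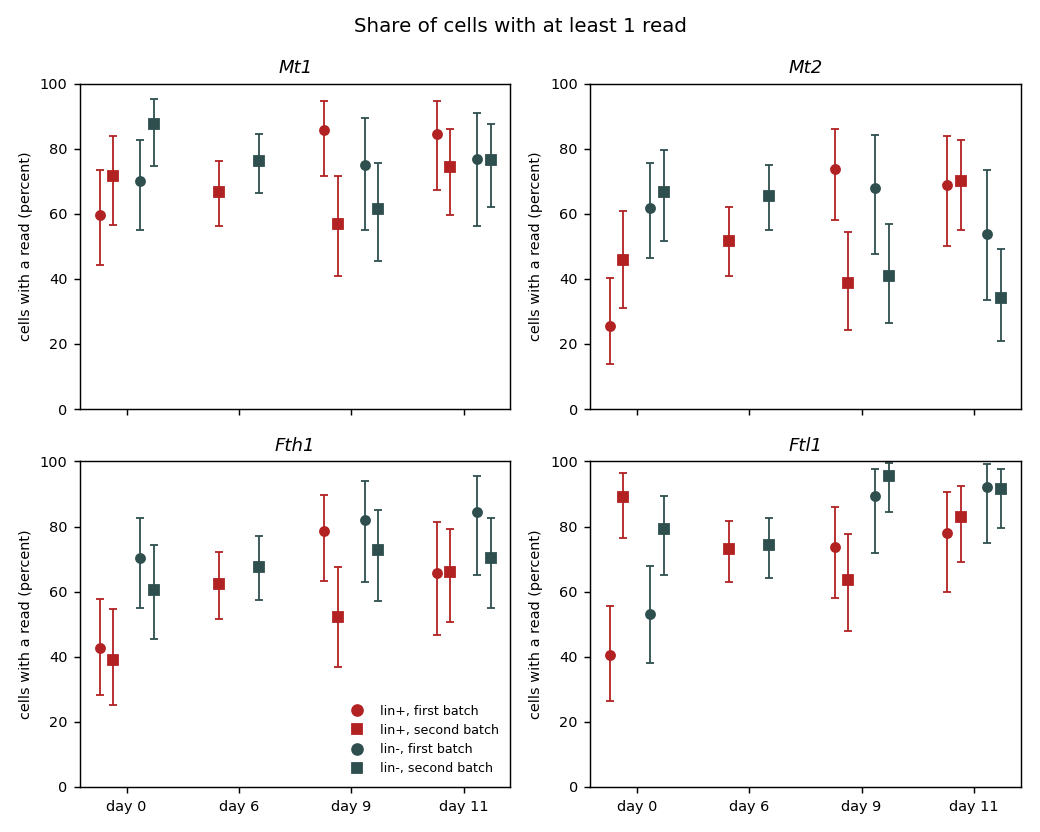
Percentage of cells with at least 1 read of each gene in each set, by day, lin+ left of lin-, with exact 95% intervals. Mt2 was found in 25.5% to 73.8% of cells of the lin+ sets and in 34.0% to 67.9% of cells of the lin- sets.

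Wound sets did not enter the comparison in which Mt2 was known to differ, so the lineages were compared there with a test. Earlier results of these data were known when the genes were listed, so the test is not fully separate from that choice. Fth1 and Ftl1 were lower in lin+ than in lin- cells in all 5 wound samples, and Mt1 and Mt2 in 4 of 5, the exception being day 11 replicate 1. None of the 4 passed the threshold.

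Ftl1 levels in lin+ cells were 451 (day 6), 301 and 340 (day 9), 388 and 614 (day 11), against 873, 675 and 745, and 918 and 775 in lin- cells of the same wounds. Every lin+ wound set was below every lin- wound set of its batch, which held for 1.47% of tested genes. The difference was −0.96 on the log2 scale (SE 0.21, limma adjusted p = 0.162), or 1.95-fold lower in lin+ cells. Fth1 levels in lin+ cells were 1296 (day 6), 310 and 538 (day 9), 316 and 644 (day 11), against 3428, 527 and 697, and 949 and 741 in lin- cells. The day 6 sets were the highest of their lineage in the second batch, where the lineages overlapped, and in the first batch they did not. The difference was −0.87 (SE 0.22, limma adjusted p = 0.258).

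Markers of hair follicle cells differed between the lineages in the same wounds. Summed outer bulge markers (4 genes, all 4 with a negative difference) were at 1744 (day 6), 357 and 295 (day 9), 469 and 594 (day 11) in lin+ cells, against 3395, 1110 and 1620, and 1131 and 1693 in lin- cells, lower in lin+ cells in all 5 wounds. Of these markers only Cxcl14 passed (log2 difference −1.91, SE 0.25, limma adjusted p = 0.0107). The deposited annotation placed 2 first-batch and 21 second-batch lin+ wound cells in the outer bulge (OB), against 12 and 60 lin- wound cells. The 60 include cells of melanocyte markers, with Ftl1 levels of 2208 to 2863, which also enter the OB means below. Of 5 upper follicle markers, Cst6 (5.30), Defb6 (4.28) and Krt79 (2.25) were higher in lin+ wound cells (limma adjusted p = 2.97e-05, 0.0365 and 0.00262). Within cells annotated as IFE-B, the wound difference was −0.77 for Ftl1 (SE 0.24) and −0.25 for Fth1 (SE 0.37). This separation is by label, since 39 IFE-B cells were in deposited cluster 1, which held 102 OB cells. The part of these markers and identities in the wound differences was not tested.

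Mt2 levels in lin+ wound cells were 1258 (day 6), 614 and 365 (day 9), 405 and 480 (day 11), against 3320, 1167 and 585, and 366 and 731 in lin- wound cells. Mt1 levels were 2579 (day 6), 2050 and 1086 (day 9), 1312 and 1533 (day 11) in lin+ cells, against 6156, 5523 and 1653, and 1027 and 1918 in lin- cells. In day 11 replicate 1 both metallothioneins were higher in lin+ cells, and in the other 4 wounds both were lower. In day 9 replicate 2 the highest lin- cell gave 37.5% of the Mt2 level, and the highest for Mt1 gave 33.3%. Without it the lin- levels were 374 for Mt2 and 1129 for Mt1, beside 365 and 1086 in lin+ cells. The lin+ levels without their highest cell were 328 and 957. The wound difference was −0.69 for Mt2 (SE 0.21, limma adjusted p = 0.389) and −0.65 for Mt1 (SE 0.25, limma adjusted p = 0.553).

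The share of wound cells with an Mt2 read did not follow its level. Mt2 was found in 51.6% (day 6), 73.8% and 38.6% (day 9), 68.8% and 70.2% (day 11) of lin+ cells, against 65.6%, 67.9% and 40.9%, and 53.8% and 34.0% of lin- cells. Lin+ cells had the higher share in 3 of the 5 wounds, most clearly in day 11 replicate 2, where thinned shares were 63.6% in lin+ and 35.6% in lin- cells. In that lin- set 1 cell gave 35.8% of the Mt2 level, and the level without it was 480, beside 480 in lin+ cells. On the mean over cells of the log, which the highest cells move less, the Mt2 difference turned to 0.32 (limma adjusted p = 0.844). In IFE-B cells alone the wound difference was −0.77 for Mt2 and −0.70 for Mt1, and none of the 4 metal genes passed there (limma adjusted p between 0.647 and 0.986).

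Of all tested genes, 28 passed the threshold in this comparison (0.264%), beside 0 of the 4 metal genes. All 4 had an unadjusted p under 0.05, as did 760 of the 10618 genes (7.16%), and by edgeR on recovered reads all 4 had one too and none passed the threshold. Counted over all 7 skin samples, Fth1 and Ftl1 were lower in lin+ cells in each, as were 1.72% of tested genes. Mt1 and Mt2 were lower in 6 of 7, where 9.51% of tested genes were lower in at least 6. These counts include the 2 unwounded samples that were known when the genes were chosen, and in the 5 wounds alone the background was 5.06% for all 5 and 22.5% for at least 4.

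**Figure D3:**
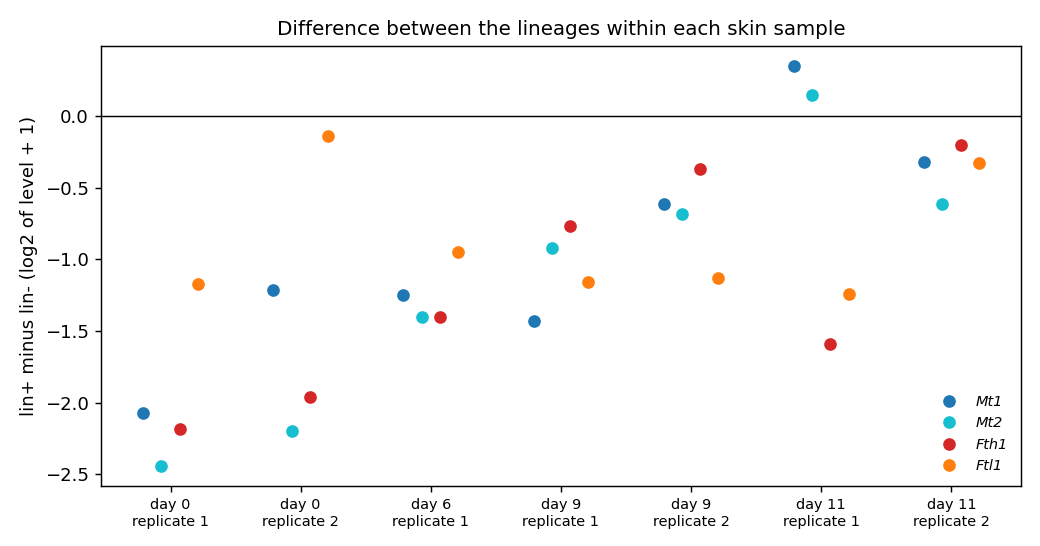
Lin+ minus lin- difference of log2(level + 1) within each of the 7 skin samples. Differences of Mt1, Mt2 and Fth1 were between −2.44 and −1.21 in the 2 unwounded samples, and Mt1 and Mt2 were above 0 only in day 11 replicate 1.

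The lineage difference was smaller in wounds than in unwounded skin for Mt2, Mt1 and Fth1. The wound minus unwounded difference of lineage effects was 1.63 for Mt2 (SE 0.40), 1.20 for Fth1 (SE 0.41) and 0.99 for Mt1 (SE 0.46), against −0.31 for Ftl1 (SE 0.40). It rests on the unwounded values that were known beforehand and is given without a test.

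Day 6 wounds held the highest metallothionein and Fth1 levels of each lineage in the second batch. Lin+ cells had Mt2 levels of 1258 at day 6, against 385 in the day 0 set of the same batch, and Fth1 levels of 1296, against 379. Lin- cells had Mt2 levels of 3320 at day 6, against 1773 at day 0, and Fth1 levels of 3428, against 1479. Mt1, Mt2 and Fth1 at day 6 were above every other second-batch set of their lineage in both lineages, and Ftl1 was so in lin- cells. The same held for 25.3% of tested genes in lin+ and 23.9% in lin- cells. With 1 set per lineage at day 6, its replicate spread could not be measured. Summed outer bulge markers were at 1744 in lin+ and 3395 in lin- cells of day 6, against 1228 in lin+ and 1467 in lin- cells of day 0 in that batch. The members did not move together. Cxcl14 was higher at day 6 (1196 in lin+ and 2270 in lin- cells, against 379 and 773). Cd34 was lower (74.2 and 188, against 160 and 291). Postn was lower in lin+ and higher in lin- cells, and Lgr5 the reverse. The part of these markers in the day 6 levels was not tested.

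In the fit, the SE at day 6 comes from the spread of the other groups and assumes that the lone set varies like them. The fitted day 6 minus day 0 difference in lin+ cells was 2.09 for Mt2 (SE 0.64), 1.52 for Fth1 (SE 0.55), 1.47 for Mt1 (SE 0.70) and 0.50 for Ftl1 (SE 0.61). None passed (limma adjusted p = 1 for each), and neither did any other of the tested genes (0%), of which 461 had an unadjusted p under 0.05 (4.34%), Mt2 and Fth1 among them. By edgeR the count past the threshold was also 0. In lin- cells the differences were 1.17 for Mt2 (SE 0.64), 1.08 for Mt1 (SE 0.70), 0.85 for Fth1 (SE 0.55) and 0.80 for Ftl1 (SE 0.61), with limma adjusted p between 0.895 and 0.938. There 4 genes of all tested passed (0.0377%), and none of the 4 metal genes had an unadjusted p under 0.05 by limma or by edgeR. The day 0 sets of these comparisons and of those of late wounds also enter the lineage comparison of unwounded skin in which Mt2 was known to differ.

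In late wounds, days 9 and 11 together, levels of Fth1 and Mt2 in lin- cells were mostly below those of unwounded skin and Ftl1 levels were above, though none passed the threshold. Lin- levels of Fth1 were 527, 697, 949 and 741 in late wounds, against 2175 and 1479 at day 0 (1265 in place of 2175 without its highest cell). They were below the day 0 set of their batch in all 4, as was the case for 15.3% of tested genes. Lin- levels of Mt2 were 1167, 585, 366 and 731 in late wounds, against 1078 and 1773 at day 0, the exception to lower levels being day 9 replicate 1. The late minus day 0 difference in lin- cells was −1.33 for Fth1 (SE 0.38, limma adjusted p = 0.174), −1.08 for Mt2 (SE 0.44, adjusted p = 0.335) and −0.51 for Mt1 (SE 0.48, adjusted p = 0.684). Ftl1 lay the other way, with late wound levels of 675, 745, 918 and 775 in lin- cells, against 304 and 553 at day 0, and 15.7% of tested genes were likewise above the day 0 set of their batch in all 4. Its difference was 0.91 (SE 0.42, limma adjusted p = 0.387). None of the 4 passed, where 20 of all tested genes did (0.188%), and 3 of the 4 (Fth1, Ftl1 and Mt2) had an unadjusted p under 0.05, as did 12.8% of tested genes. By edgeR none passed and Fth1 and Mt2 had an unadjusted p under 0.05.

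In lin+ cells the late minus day 0 differences were 0.73 for Mt2 (SE 0.44), 0.63 for Mt1 (SE 0.48), 0.60 for Ftl1 (SE 0.42) and 0.01 for Fth1 (SE 0.38). The limma adjusted p was between 0.603 and 1, with 10 of all tested genes called (0.0942%) and none of the 4 at an unadjusted p under 0.05 by limma or by edgeR. The batches gave different values. Late wound levels of Mt2 in lin+ cells were 614 and 405 in the first batch, against 198 at day 0, while in the second they were 365 and 480, against 385. For Fth1 they were 310 and 316 in the first batch, against 480 at day 0, while in the second they were 538 and 644, against 379.

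Ordered by level after adjustment for batch, lin- cells of day 6 were the highest group for Mt1, Mt2 and Fth1, and lin+ cells of day 0 the lowest for Mt1, Mt2 and Ftl1. The highest and lowest groups were 3.49 apart on the log2 scale for Mt2, 2.99 for Fth1, 2.72 for Mt1 and 1.69 for Ftl1, against residual SDs of 0.62, 0.47, 0.78 and 0.53 (5 degrees of freedom). For Mt2, lin- day 6 stood 1.17 above lin- day 0, whereas lin- day 0 and lin+ day 6 were 0.23 apart and lin- day 11, lin+ day 9 and lin+ day 11 were within 0.13 of their neighbours among these 3. For Mt1 only lin- day 6 (1.04) and lin+ day 6 (0.80) stood more than the residual SD above the next group. For Fth1 the upper 3 groups, lin- day 6, lin- day 0 and lin+ day 6, each stood more than the residual SD above the next, and the lower 5 did not. Only 1 step of Ftl1, the one below lin- day 9, was larger than its residual SD.

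The deposited identities of the cells differed widely in these genes. They were assigned from the same transcriptomes, and the paper lists Mt2 among IFE-B markers, so their levels are a description. IFE-B cells had the highest mean Mt1 and Mt2, with 5191 and 2285 RPKM of Mt1 in the first and second batch and 1678 and 1272 RPKM of Mt2. Pooled over lineages and days, OB cells had 1853 and 1229 RPKM of Fth1 and 895 and 720 RPKM of Ftl1, and IFE-B cells had 1118 and 1159 RPKM of Fth1 and 438 and 388 RPKM of Ftl1. The identities differ in their shares of lin+, lin-, wound and unwounded cells, and the order held within such groups for some genes only. Within the 8 combinations of batch, lineage and unwounded or wound skin, Ftl1 was higher in OB than in IFE-B cells in 7 and Mt2 was lower in all 8, whereas Fth1 was higher in OB cells in 4. In lin- cells Fth1 averaged 2393 and 473 RPKM in unwounded OB cells of the first and second batch and 1402 and 1406 RPKM in wound OB cells, against 2585 and 975 RPKM in unwounded and 882 and 1826 RPKM in wound IFE-B cells. Some of these groups held as few as 2 cells, and the first-batch unwounded lin- IFE-B mean of Fth1 included 1 cell at 48008 RPKM.

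Mt2 was found in 20.8% and 42.3% of OB cells in the first and second batch, beside 73.9% and 69.7% of IFE-B cells. Cells of the first upper hair follicle class (uHF-I) had lower means than IFE-B cells in all 4 genes, with 238 and 278 RPKM of Mt2 and 185 and 367 RPKM of Fth1, while their first-batch mean of Mt2 was above the 153 RPKM of OB cells. The 22 second-batch uHF-III cells had means of 8.19 RPKM for Mt2 and 19.3 RPKM for Fth1, and the 5 and 10 uHF-II cells had no read of Fth1.

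**Figure D4:**
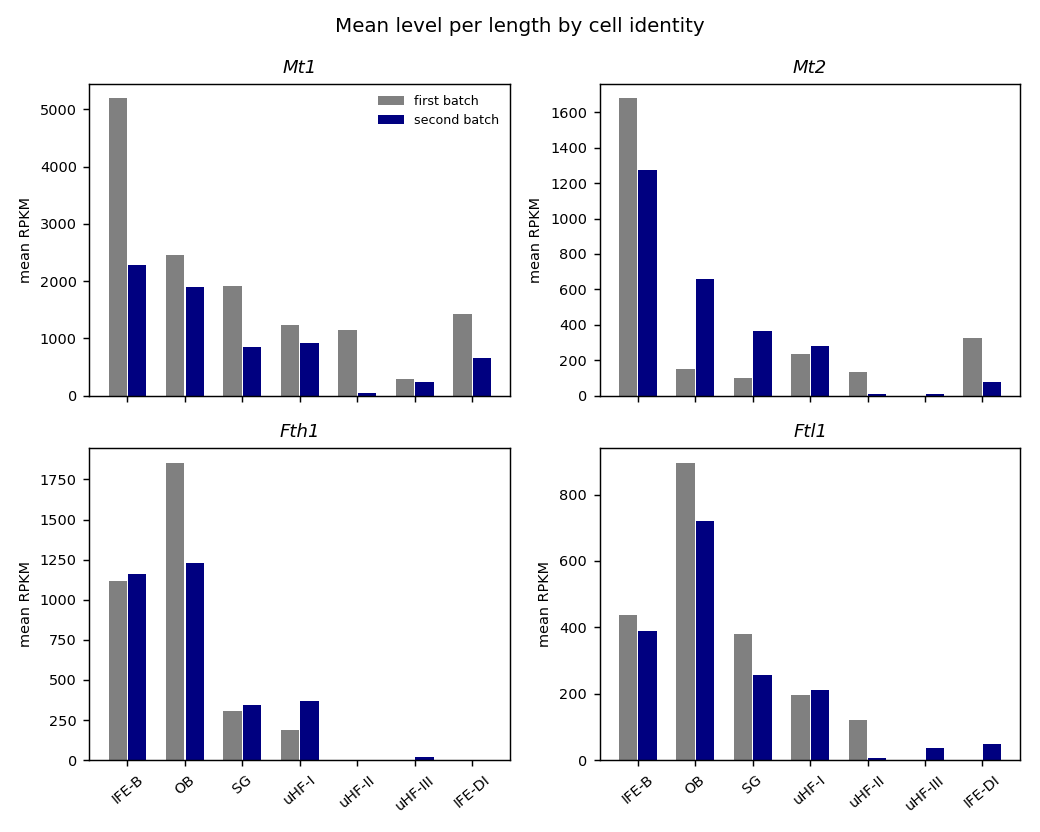
Mean level in RPKM by deposited cell identity and batch for IFE-B, OB, sebaceous gland (SG), 3 upper hair follicle classes and differentiated interfollicular epidermis (IFE-DI); bars start at 0. Pooled over lineages and days, Mt2 is highest in IFE-B (1678 and 1272 RPKM) and Ftl1 in OB (895 and 720 RPKM), and the order of Fth1 between IFE-B and OB differed among lineages and days.

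The deposited clusters separated the same genes further. Cluster 4, all 64 cells of which were IFE-B, had Mt2 reads in 96.0% of first-batch and 92.3% of second-batch cells, with means of 2814 and 1740 RPKM. Fth1 was found in 100% and 92.3% of its cells. Its Ftl1 means of 345 and 227 RPKM were below those of cluster 1 (934 and 596 RPKM), which held 102 of the 121 OB cells. Cluster 3, which held 48 uHF-I and 26 uHF-III cells, had the lowest second-batch share with Mt2 (19.2%) and with Fth1 (17.8%). In cluster 2 the mean of Fth1 was 1820 and 1961 RPKM while its median was 0 in both batches, so that a minority of cells carried the level.

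Mt1 and Mt2 varied together. Over all annotated cells, 352 had reads of both, 144 of Mt1 alone, 21 of Mt2 alone and 167 of neither. Across the cells of a set, their Spearman correlation was between 0.35 and 0.89 over the 14 sets, with a median of 0.70. Over the 14 sets, after centring on the batch mean, their Pearson correlation was 0.95. Cells and sets share library chemistry and depth, so these are descriptions. The ratio of Mt1 to Mt2 in mean RPKM was 1.80 to 4.86.

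Fth1 and Ftl1 followed each other less closely, with a median Spearman correlation within sets of 0.37 and a Pearson correlation over sets of 0.26. Their ratio in mean RPKM was 3.98 and 0.792 in unwounded lin+ cells, against 8.02 and 2.74 in unwounded lin- cells. In late wounds it was 0.910 to 1.61 in lin+ cells and 0.875 to 1.16 in lin- cells. At day 6 the ratio was 2.98 in lin+ cells and 4.02 in lin- cells. A single cell carried 43.1% of the Fth1 level of unwounded lin- replicate 1, whose level without it was 1265.

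Of the 10617 other tested genes, Mt1 was the most like Mt2 over the 14 sets. The next were Gm8210 (Pearson correlation 0.86), Gm9800 (0.86), Rad51c (0.85), whose product acts in recombination repair of DNA, and A130040M12Rik (0.85). Fth1 ranked 47th with 0.73 and Ftl1 1245th with 0.40. Levels of Rad51c (0 to 20.4) and A130040M12Rik (0.852 to 14.5) were low, so their likeness rests on few reads.

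**Figure D5:**
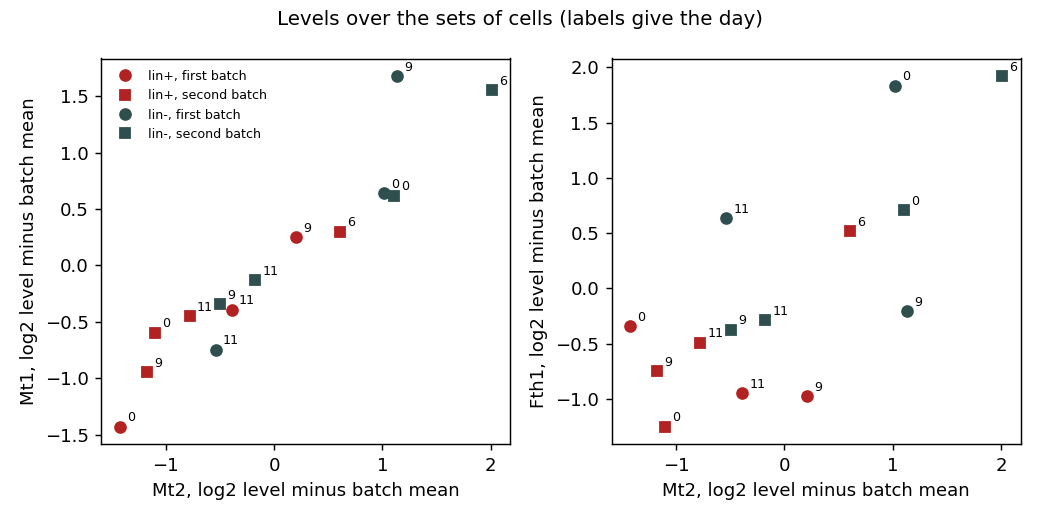
Log2 level of Mt1 (left) and Fth1 (right) against Mt2 over the 14 sets, each relative to the mean of its batch, with the day beside each point. The sets lie closer to a line for Mt1 (Pearson correlation 0.95) than for Fth1 (0.73).

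The zinc exporter, the transcription factor and the transferrin receptor gave no usable comparison. Slc30a1 levels were 0 to 2.31 in lin+ sets and 0.223 to 8.83 in lin- sets. Its highest level, in unwounded lin- cells of replicate 1, came to 94.5% from 1 cell. Mtf1 levels were 0.479 to 28.3 in lin+ sets and 0 to 8.62 in lin- sets, and 1 cell gave 99.3% of the highest level, in lin+ cells of day 11 replicate 1. Tfrc levels were 3.61 to 8.70 in lin+ sets and 0 to 9.54 in lin- sets. Slc30a1 was lower in lin+ cells in 4 of 7 skin samples, and Mtf1 and Tfrc in 3 of 7. Where a set had no read, the exact interval allowed a share of up to 13.2% of cells. A fit with no filter on low values called none of the 3 in any tested comparison (limma).

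Other genes of metal handling gave no call either. Of 20 zinc genes (transporters of the Slc30 and Slc39 families with Mt3 and Mt4), 16 were tested, as were 20 of 28 iron genes and 7 of 11 copper genes, and none passed in either direction in any of the 5 tested comparisons, by limma or by edgeR. At an unadjusted p under 0.05 the limma fit held 0 to 3 zinc genes, 0 to 4 iron genes and 0 to 4 copper genes per comparison, beside 4.34% to 12.8% of all tested genes. The 4 copper genes, of 7 tested, were in late lin+ wounds against day 0, where 10.1% of all tested genes had such a p. The chaperones Atox1 (0.85) and Ccs (1.08) and the transporter Slc31a2 (1.47) had positive log2 differences and the transporter Slc31a1 a negative one (−1.63), with limma adjusted p between 0.396 and 0.439. The median zinc gene had a lin+ minus lin- difference of −0.54 in wounds, with 13 of 16 below 0, beside a median of −0.01 over all tested genes. The median was −0.17 for iron genes and 0.15 for copper genes.

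Mt3 levels were 0 to 3.72, and Mt4, a metallothionein of stratified epithelium, had levels of 0 to 243 with reads in 33 cells. Ftl1-ps2, a pseudogene copy of Ftl1, had levels of 2.84 to 38.2, beside 135 to 918 for Ftl1. How reads shared by the copies were counted was not tested, so Ftl1 levels are uncertain to that extent.

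Sets of genes that respond to dissociation and to glucocorticoids were measured beside the metal genes, since glucocorticoids and stress are known to raise metallothionein. None of 14 tested stress genes and none of 5 tested glucocorticoid genes passed in any of the 5 comparisons (limma and edgeR). At an unadjusted p under 0.05 there were 0 to 5 stress genes and 0 to 1 glucocorticoid genes per comparison by limma, beside 4.34% to 12.8% of all tested genes. The 5 stress genes were in late lin- wounds against day 0, where the share of all tested genes was 12.8%, and their log2 differences were of both signs, positive for the heat shock genes Hspa1a (2.27) and Hspa1b (1.92) and negative for Fosb (−2.23), Dnajb1 (−1.58) and Atf3 (−1.44). Summed stress genes were at 12315 and 18715 in unwounded lin+ sets of replicates 1 and 2, against 22200 and 15362 in lin- sets, lower in lin+ cells in replicate 1 and higher in replicate 2. In wounds they were at 7503 to 14349 in lin+ sets, against 7855 to 24763 in lin- sets, lower in lin+ cells in 4 of 5 wounds. Summed glucocorticoid genes (6 genes) were at 146 and 226 in unwounded lin+ sets of replicates 1 and 2, against 190 and 288 in lin- sets. In wounds they were at 130 to 301, against 159 to 418, lower in lin+ cells in 4 of 5. Of the 5 tested, 4 had a negative lin+ minus lin- difference in unwounded skin and 2 in wounds. The part of the stress and glucocorticoid genes in the metallothionein levels was not tested.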

How the data were processed

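Smart-seq2 reads were, per the labels and the methods, trimmed with Trimmomatic (0.27), aligned with STAR (2.2) to GRCm38 and counted with featureCounts, and analysed with Seurat (3.2.2 per the labels). The deposited table held raw counts for first-batch cells and RPKM values for second-batch cells, as the authors left them, and the authors also deposited RPKM of first-batch cells, from which gene lengths were recovered. With these lengths, second-batch values became whole reads for 99.97% of values under 200 reads (tolerance 0.02, lowest cell 99.71%). Values were scaled to the cell total, averaged per set, scaled within batch by the median of ratios and tested with limma (3.58.1) on log2(level + 1). Of 19617 genes with values in both batches, 10618 reached a level of 10 in at least 2 sets. Day comparisons modelled each combination of lineage and day beside a batch term, and lineage comparisons had the skin sample as a block. edgeR (4.0.16) ran on recovered reads.

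Lin+ and lin- cells of a skin sample came from the same skin, which is where the pairing comes from. Their deviations from the fitted lineage, day and batch terms correlated at −0.216 (day 0), −0.00969 (day 9) and −0.101 (day 11). With 2 sets a group and a batch term, the fit itself pulls such correlations to negative values. They cannot show whether cells of the same skin vary together. The genes and lists were chosen with earlier results of these data known. The genes named are the 7 listed, the 5 most like Mt2 and any gene of the metal lists past the threshold, of which there were none. Copper, stress and cell type marker genes named beside them were chosen after their values were seen. Alternatives were the value added before the log, filter, scaling, mean of the log, edgeR and IFE-B cells alone. Others left out the block (in day comparisons the batch term), each skin sample, cells under 200 genes or cells of melanocyte markers. The last 2 were chosen after the data were seen. Left out were 69 of 753 samples, 6 of them blank wells, and 747 per-sample columns of other tables. Simulated data were used to test the fits.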

Additional observations from a re-analysis of the deposited data

How the results depend on the processing

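Under the other settings none of the 4 tested genes passed the threshold except with the mean over cells of the log in place of the log of the mean. That setting called 2 genes in late lin+ wounds against day 0 (Mt2 2.81, adjusted p = 0.0151, and Fth1 2.30, adjusted p = 0.0152, limma), 1 in late lin- wounds against day 0 (Ftl1 2.83, adjusted p = 0.0128) and 1 between the lineages in wounds (Ftl1 −1.92, adjusted p = 0.0149). It called 1498, 1788 and 192 of all tested genes there, in place of 10, 20 and 28, and 2 each at day 6, in place of 0 in lin+ and 4 in lin- cells, and moved the median of all genes in late wounds to 0.395 in lin+ and 0.386 in lin- cells, from 0.151 and 0.107. It turned Fth1 in late lin- wounds to 0.32 and Mt2 between the lineages in wounds to 0.32. The cause was not tested. With each skin sample left out in turn, late minus day 0 in lin+ cells ranged from −0.12 (without day 0 replicate 1) to 1.38 for Mt1, from −0.39 to 0.41 for Fth1 (below 0 without day 0 replicate 2 and, at −0.21 and −0.23, without day 9 or day 11 replicate 2), and from −0.25 (without day 0 replicate 1) to 1.45 for Ftl1. In lin- cells Mt1 ranged from −1.11 to 0.08 (without day 9 replicate 2). Day 6 minus day 0 of Ftl1 in lin+ cells ranged from −0.15 (without day 0 replicate 1) to 1.55, and the difference of its lineage effects from −0.82 to 0.20 (without day 0 replicate 2).

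Without the replicate block, the paired comparison of the lineages in wounds gave −0.96 for Ftl1 and −0.87 for Fth1 (limma adjusted p = 0.527 for both), and the 4 genes kept their direction and side of the threshold in every tested comparison. In this setting a batch term stood in for the block in the lineage comparison, and 13 of all genes passed in wounds in place of 28. The day comparisons have no such block, and there the setting dropped the batch term. First-batch counts and second-batch RPKM then entered with no adjustment between them. Genes past the threshold were then 0 in place of 10, 20 and 4 in late lin+, late lin- and day 6 lin- cells. With edgeR the counts of all genes past the threshold were 2 for lineages in wounds, 1 in late lin+, 3 in late lin- and 2 in day 6 lin- cells. With 10 added before the log they were 1 in late lin+, 12 in late lin- and 15 in day 6 lin- cells, and with no filter 1, 5 and 319 there, 121 in day 6 lin+ cells and 5 for lineages in wounds. Of the calls in late lin+ cells, 9 of 10 were higher in wounds, against 0 of 1 with edgeR. In IFE-B cells alone they were 10 in late lin-, 1 in day 6 lin+, 2 in day 6 lin- cells and 0 for lineages in wounds (582 at an unadjusted p under 0.05). Cells of at least 200 genes gave 4 in late lin- and 2 in day 6 lin- cells, and leaving out cells of melanocyte markers gave 9 in late lin- cells. With a skin sample left out they ranged from 0 to 325 in late lin+, 0 to 200 in late lin-, 0 to 15 in day 6 lin+, 1 to 13 in day 6 lin- cells and 8 to 36 for lineages in wounds. The cause was not tested. Scaling by cell totals alone moved the median of all genes in late wounds to 0.261 in lin+ and 0.275 in lin- cells and at day 6 to −0.013 and −0.080, from 0.109 and 0.110, and changed no direction of the 4 genes. Without day 6 replicate 1 there was no day 6 comparison. With 26 to 93 cells a set and 1 or 2 sets a group, the depth limits the 3 low genes most, since a set level of theirs can rest on 1 cell.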
